A study of Rattus norvegicus with 23 samples.

Results

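The cytoplasmic ribosomal protein genes were followed in the heart and kidney of rats after kidney and vascular surgery. Members were chosen by gene symbol alone: symbols beginning with Rpl or Rps and a digit, Rplp0 and Rpsa, without the Rps6k kinases and without names ending in l1 or -ps. The rule found 66 gene identifiers with 63 distinct symbols among the 32552 genes in the count files. Of these, 35 encode core proteins of the large ribosomal subunit and 25 core proteins of the small subunit. Another 5 are paralogues (Rpl3l, Rpl10l, Rpl36al, Rps4y2 and Rps27l). The last, Rps19bp1, encodes a protein that binds Rps19 and is not itself part of the ribosome. Of 77 core symbols listed, 57 were found and the other 20, Rplp1, Rplp2, Rps6, Rps18 and Rps19 among them, were not analysed here. Rpl32, Rps27a and Rps4x each carried 2 identifiers. All 66 were tested in heart, and 65 in kidney, where Rpl3l was too low.

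The animals were Sprague-Dawley rats, 13 weeks old, with tissue collected 4 weeks after the operation. Sham rats had sham surgery, NX rats lost 5/6 of their kidney tissue (a standard model of chronic kidney disease), and AVF+NX rats had that nephrectomy together with an arteriovenous fistula, the jugular vein being joined end to side to the carotid artery. Every AVF+NX rat therefore also carried the nephrectomy, and no group had a fistula alone. Poly(A)-selected RNA of 23 samples was sequenced: 4 per group and organ, except for 3 Sham hearts. The samples are numbered as biological replicates, and the labels do not tie a heart to a kidney of 1 animal.

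Ribosomal proteins surround the ribosomal RNA in the subunits that translate messenger RNA. Their genes are among the most highly expressed in most tissues, and the proteins are needed in equal numbers, so their messages usually vary together. Many of these messages begin with a run of pyrimidines, the 5′ terminal oligopyrimidine tract, through which mTOR signalling controls their translation. In heart muscle, ribosome number is known to rise with growth of the myocytes, and the muscle paralogue Rpl3l takes the place of Rpl3 in many ribosomes.

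Bases around the annotated start are shown for 9 genes on which the results turn. All but Rps24 and Rpl3 were called lower in heart after AVF+NX, and Rps24 was called higher in kidney. The windows therefore do not compare members that moved with members that did not. Each window holds 10 bases before the start and 20 from it, from RefSeq promoters of the rat build GRCr8, read 5′ to 3′ on the transcribed strand. Capitals mark the unbroken run of C and T that covers the start base; a window without capitals has A or G at the start.
Rps21 (chr3:187724028-187724057, plus strand): agccaCTTCCTTTCTgtgttctccgtagac
Rpl22 (chr5:168117951-168117980, plus strand): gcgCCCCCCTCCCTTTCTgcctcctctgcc
Rps15 (chr7:10068096-10068125, minus strand): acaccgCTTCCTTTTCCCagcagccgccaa
Rplp0 (chr12:46718371-46718400, minus strand): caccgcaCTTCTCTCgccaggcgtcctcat
Rps24 (chr16:96507-96536, plus strand): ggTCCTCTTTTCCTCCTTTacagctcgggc
Rpl3 (chr7:113507971-113508000, minus strand): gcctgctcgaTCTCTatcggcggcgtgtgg
Rps16 (chr1:92770648-92770677, plus strand): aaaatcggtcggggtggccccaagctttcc
Rps3 (chr1:163195757-163195786, minus strand): ttcagcggcgCgcggcagcaagatggcggt
Rpl3l (chr10:14258436-14258465, plus strand): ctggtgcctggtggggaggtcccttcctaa

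The promoter table matched 49 of the 63 symbols. A run of at least 5 bases of C and T over the start base, searched on the transcribed strand only, was present in 29 of the 49 (59.2%) and in 4003 of all 33469 promoters of the same length in the table (12%). The starts are annotated ones, and the starts used in these tissues were not measured. Among the 9 shown, Rps21, Rpl22, Rps15, Rplp0, Rps24 and Rpl3 had such a run, while Rps16, Rps3 and Rpl3l did not.

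The deposited count files place the genes on another build, whose name is not given in the sources used here. There Rps21 (ENSRNOG00000060449) spans chromosome 3, 175629374 to 175630048, on the plus strand, and Rpl3l (ENSRNOG00000014641) chromosome 10, 14094754 to 14105308, on the plus strand. Rpl22 lies on chromosome 5 from 169506138 to 169512871, Rps15 on chromosome 7 from 12282109 to 12283608 and Rps3 on chromosome 1 from 164435878 to 164441167. Rps16 spans chromosome 1, 85405512 to 85408444, on the minus strand in the files and stands on the plus strand in RefSeq, so its window above is a description of the RefSeq gene only. Rps16, Rps3, Rps12, Rpl3, Rpl5, Rpl10, Rpl13a, Rpl17, Rpl23 and Rpsa overlap the span of another gene, and the strand setting of the counting is not given in the sources used here.

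Total counts ran from 9605973 to 48079431 in heart libraries and from 9069354 to 18782085 in kidney libraries, and the heart groups differed in depth: 9894716 to 11866042 for Sham against 11889483 to 48079431 for AVF+NX. Defining markers of the labelled organs were present. Summed cardiomyocyte markers stood at 63958 CPM or more in every heart and at 28.2 CPM or less in every kidney, and summed proximal tubule markers at 11445 CPM or more in every kidney and 696 CPM or less in every heart (CPM, the count scaled to a common library total after TMM).

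Summed over the 66 genes, the share of a library's counts averaged 1.25% ± 0.157 (SD) in the 3 Sham hearts. It was 1.11% ± 0.0356 in the 4 NX hearts and 0.946% ± 0.0264 in the 4 AVF+NX hearts. The AVF+NX hearts, at 0.912% to 0.971%, lay below every Sham heart (1.13% to 1.43%) and every NX heart (1.07% to 1.15%). In kidney the AVF+NX share was the highest: 1.36% ± 0.0620 in Sham, 1.39% ± 0.0874 after NX and 1.69% ± 0.133 after AVF+NX (n = 4 each). The AVF+NX kidneys (1.57% to 1.88%) lay above all others, while Sham (1.31% to 1.45%) and NX kidneys (1.26% to 1.47%) overlapped. The counting error of a share was small, as in AVF+NX heart 4, where the exact 95% binomial interval of 0.962% ran from 0.956% to 0.967%. Such intervals cover counting error only, since reads without molecular identifiers are not independent molecules. Without the counts of mitochondrial genes the heart shares were 1.59% ± 0.188, 1.40% ± 0.0620 and 1.24% ± 0.0544. All tissue was bulk, so that fewer cells of a type and less RNA per cell cannot be told apart.

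**Figure D1:**
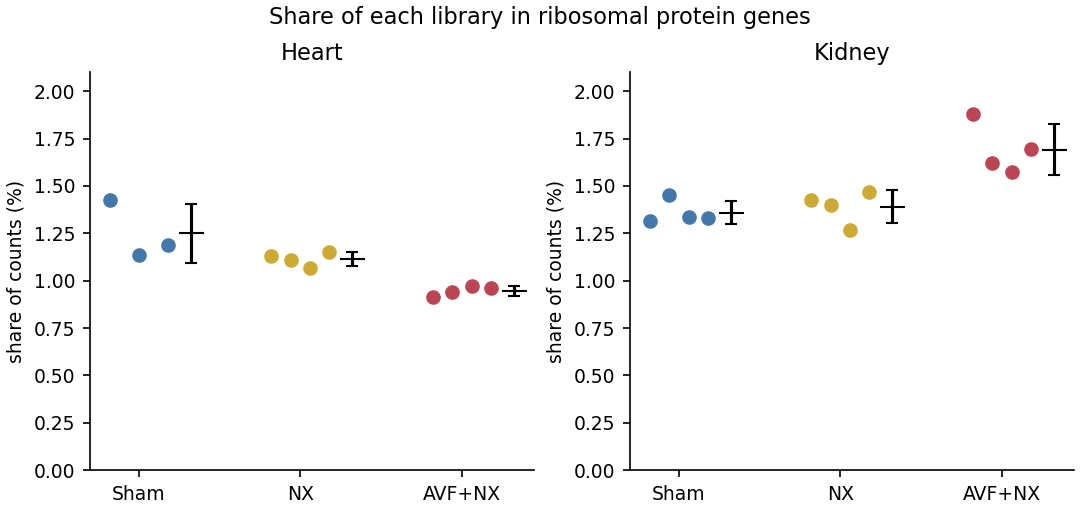
Share of each library's counts (%) that fell in the 66 ribosomal protein genes, by organ and operation; points are libraries, bars the mean ± SD. The 4 AVF+NX hearts sit at 0.912% to 0.971%, under all other hearts, and the 4 AVF+NX kidneys at 1.57% to 1.88%, over all other kidneys.

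Per unit of length the members spanned a wide range. In Sham hearts Rpl41, the smallest ribosomal protein, was highest with 895 ± 149 RPKM (SD, n = 3), followed by Rps27 (684 ± 73.1), Rps28 (596 ± 32.7), Rpl21 (585 ± 26.6) and Rpl35 (536 ± 27.7). The same 5 genes led in Sham kidneys, where Rpl41 reached 1687 ± 169 RPKM (n = 4). Neighbours in these orders, such as Rps28 and Rpl21 in heart, did not differ beyond their spread. The lowest tested members in both organs were the single-exon identifiers Rpl30, single-exon Rpl32 and single-exon Rps4x, at 2.83 to 3.83 RPKM in Sham hearts. Single-exon identifiers, 6 in all, can be near-identical copies of the spliced gene and their values are uncertain, as are those of the 27 members whose span overlaps another gene.

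The main contrast in heart asks what the combined operation changed against sham surgery. After AVF+NX, 42 of the 66 genes fell, 0 rose and 24 did not pass the test (edgeR's quasi-likelihood test, adjusted p under 0.05). Over all 12794 genes tested, 18.6% were called lower and 15.4% higher. The median log2 fold change of the 66 was -0.39, against 0.01 for all genes tested. Large and small subunits took part: 20 of 35 core large subunit genes fell (median -0.33), as did 18 of 25 core small subunit genes (median -0.49). The groups did not overlap, with AVF+NX lower, for 45 of the 66, against 24.6% of all genes tested. Without Sham heart 1, which had the highest share, 26 fell, with the calls over all genes in that refit not given here.

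Rps21 encodes a small protein of the 40S subunit, and its fall was the largest of any member; it was singled out after its values were seen. The Sham hearts 1 to 3 held 56.6, 44.9 and 51.0 CPM. NX hearts 1 to 4 held 41.8, 15.1, 12.3 and 44.9 CPM, and AVF+NX hearts 1 to 4 held 13.6, 11.4, 11.3 and 14.4 CPM. So AVF+NX hearts were all low and Sham hearts all high. Among the NX hearts, NX 3 lay inside the AVF+NX range and NX 2 just above it, while NX 1 and 4 lay just below the lowest Sham heart. The fall was 4.04-fold against Sham (log2 fold change -2.02 ± 0.40 SE, adjusted p = 0.00532).

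The 4 called genes with the smallest p were Rpl22, Rps16, Rps15 and Rps3. Rpl22, an RNA-binding protein of the 60S subunit, read 58.3, 53.4 and 49.5 CPM in the Sham hearts, 44.9, 33.7, 31.1 and 43.3 after NX and 28.3, 28.4, 28.8 and 28.8 after AVF+NX. Its AVF+NX libraries were nearly equal and all lay under the lowest NX library. The fall was 1.88-fold (log2 -0.91 ± 0.12 SE, adjusted p = 0.00146). Rps16, which sits at the head of the 40S subunit, gave 304, 244 and 229.8 CPM in Sham, 211, 138, 119 and 184 after NX and 112, 92.5, 99.1 and 120.0 after AVF+NX. Here AVF+NX and NX touched, with NX heart 3 inside the AVF+NX range, while both stayed under Sham. The change from Sham to AVF+NX was -1.29 ± 0.18 on the log2 scale (adjusted p = 0.00171).

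Rps15, in the head of the 40S subunit, held 285, 233 and 241 CPM in Sham, 231, 174, 192 and 220.3 after NX and 148, 156, 147 and 163 after AVF+NX, with no overlap between AVF+NX and either other group. Its log2 fold change was -0.72 ± 0.11 (adjusted p = 0.00183). Rps3, which lines the mRNA entry channel of the 40S subunit, followed the same order with 237, 208 and 211 CPM in Sham, 199.9, 178, 169.7 and 192 after NX, and 134, 143, 153 and 152 after AVF+NX. It fell by 0.59 ± 0.09 on the log2 scale (adjusted p = 0.00183). Among other members with large falls, chosen after their values were seen, Rps14 gave -1.33 ± 0.25 and the paralogue Rpl36al -1.30 ± 0.23 (adjusted p = 0.00365 and 0.00301). Rpl30, at 2.71 CPM or less in each heart, gave -1.77 ± 0.57 (adjusted p = 0.0304).

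**Figure D2:**
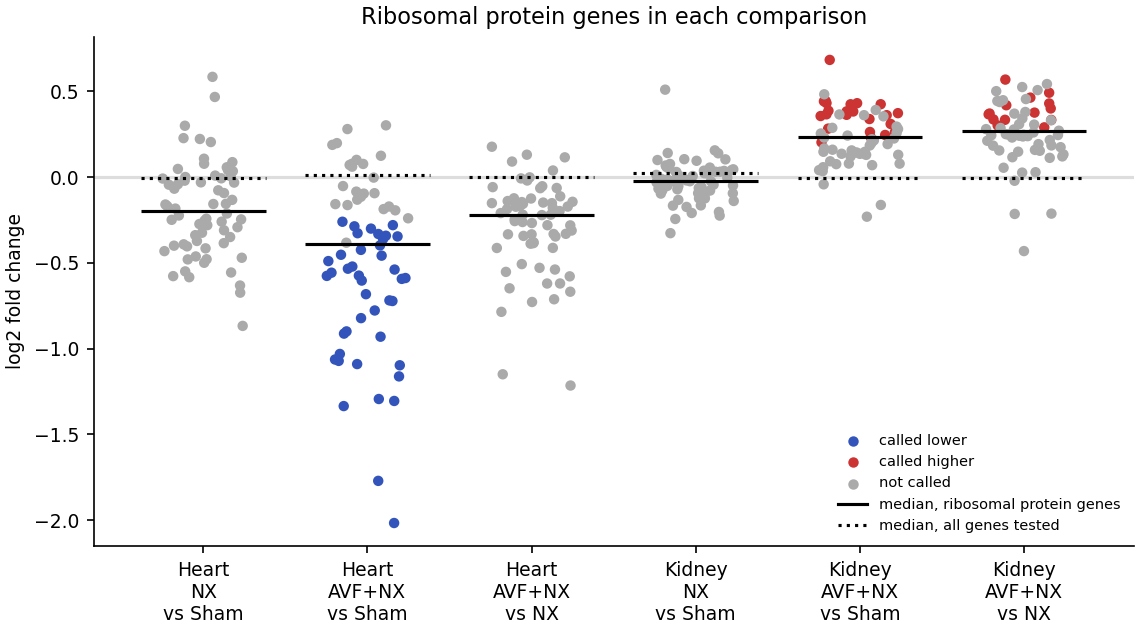
Log2 fold change of each ribosomal protein gene in the 6 comparisons within an organ; points are genes, solid lines their median and dotted lines the median of all genes tested. Blue points (called lower) appear in heart AVF+NX vs Sham, 42 of 66, and red points (called higher) in the kidney comparisons with AVF+NX, 23 and 15 of 65.

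Rplp0, the base of the stalk that recruits elongation factors, read 643, 551 and 550.0 CPM in the Sham hearts and 334, 362, 331 and 386 after AVF+NX. NX hearts, at 508, 369.6, 387 and 575 CPM, overlapped both groups. The difference from Sham to AVF+NX was -0.72 ± 0.14 (adjusted p = 0.00349). Rpl5 and Rpl11 bind 5S ribosomal RNA together and can restrain the p53 regulator Mdm2. Rpl5 fell by 0.33 ± 0.09 (adjusted p = 0.0173) from 278 ± 24.1 to 222 ± 15.0 CPM, whereas Rpl11 read 195 ± 22.9 and 224 ± 19.5 CPM with a log2 fold change of 0.20 ± 0.12 (adjusted p = 0.20). Rpl5 lost its call in 7 of 16 alternatives.

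Rpl13a, known also for its release from the ribosome in interferon signalling, fell by 1.03 ± 0.23 (adjusted p = 0.0075). NX hearts 2 and 3 lay in the AVF+NX range and NX hearts 1 and 4 in the Sham range: 126, 100.2 and 98.5 CPM in Sham, 101, 52.7, 52.2 and 107 after NX and 51.1, 55.8, 49.4 and 55.9 after AVF+NX. The spliced Rps27a identifier, which makes a ubiquitin fusion, passed narrowly (-0.30 ± 0.10, adjusted p = 0.0409) and turned to 0.074 with the length trend removed. Narrow too was the call of Rpsa, the laminin receptor precursor (-0.26 ± 0.10, adjusted p = 0.0495), which was lost in 13 of 16 alternatives. Rpl10, added late to the 60S subunit, did not pass (-0.17 ± 0.09, adjusted p = 0.17). Rps27l, a p53-responsive paralogue of Rps27, fell by 0.90 ± 0.17 (adjusted p = 0.00349) from 14.0 ± 2.15 to 7.47 ± 0.872 CPM. Of the 10 members with a positive estimate, none was called; Rpl10l (0.30 ± 0.33) and Rps10 (0.28 ± 0.15) had the highest.

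Rpl3l and Rpl3 are paralogues that occupy the same place near the peptidyl transferase centre, with Rpl3l restricted largely to heart and skeletal muscle. Rpl3l read 344, 282 and 290.0 CPM in the Sham hearts, 261, 231, 219 and 318 after NX and 164, 161, 172 and 216 after AVF+NX, so that AVF+NX hearts lay below all others. Against Sham it fell 1.71-fold (log2 -0.78 ± 0.14, adjusted p = 0.00263). Rpl3 gave 79.3, 74.4 and 84.9 CPM in Sham, 75.2, 74.9, 83.9 and 82.6 after NX and 70.3, 80.3, 74.1 and 65.3 after AVF+NX, with overlapping groups and no call (-0.13 ± 0.09, adjusted p = 0.28).

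Per unit of length Rpl3l exceeded Rpl3 in every heart, and the ratio of their RPKM was 11.3, 9.86 and 8.89 in the Sham hearts, 9.05, 8.02, 6.79 and 10.03 after NX and 6.08, 5.23, 6.04 and 8.61 after AVF+NX. AVF+NX ratios were all under the lowest Sham ratio and overlapped those after NX. The height of the ratio depends on the counted lengths, 1347 bases for Rpl3l and 3506 for Rpl3, whose span overlaps 4 other genes. It is therefore not a measure of how much more Rpl3l message was present. In CPM the Sham means were 305 for Rpl3l and 79.5 for Rpl3. In kidney Rpl3l stood at 0 to 0.539 CPM. Over the 11 heart libraries the genes whose log2 CPM ran most like that of Rpl3l were Srp9, a signal recognition particle protein (Pearson r = 0.975), Gata5, a cardiac transcription factor (0.973), Naa40, an N-terminal acetyltransferase (0.967), Spint2, a protease inhibitor (0.967), and AABR07070312.1 (0.964); these libraries share the group differences in depth.

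Several measures moved with the fall in heart. Members were short, with a median counted length of 682.5 bases against 2409 for the genes tested in heart, and other short genes were lower after AVF+NX too. Outside the members, the median log2 fold change was -0.40 for genes of up to 512 bases, -0.20 from there to 1024, -0.07 to 2048, 0.05 to 4096 and 0.15 above. Members gave -0.42 in the shortest band (20 genes), -0.45 in the next (26 genes) and -0.24 in the third (16 genes). The 15 of 20 called lower in the shortest band stood against 38.7% of all genes of that length, the 17 of 26 in the next against 31.3% and the 8 of 16 in the third against 22.2%.

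Short structured RNAs, annotated features such as small nucleolar RNAs, also separated the hearts. In AVF+NX vs Sham 35 of the 63 tested fell and 1 rose. Their mean log2 CPM, each feature centred on its mean over the hearts, was 0.83, 0.84 and 0.79 in Sham, 1.00, -1.02, -0.62 and 0.67 after NX, and -0.28, -0.51, -0.89 and -0.83 after AVF+NX. The ribosomal protein genes centred in the same way gave 0.39, 0.15 and 0.18 in Sham, 0.14, -0.05, -0.10 and 0.18 after NX, and -0.31, -0.24, -0.24 and -0.12 after AVF+NX. Within the NX group hearts 2 and 3 were lower than 1 and 4 by both measures, though above every AVF+NX heart for the ribosomal protein genes. Fibroblast markers were higher too, with 5 of 8 called and summed levels of 1709 to 2249 CPM in Sham hearts, 1829 to 2662 in NX hearts and 2578 to 3936 in AVF+NX hearts; none of them was at 0. Endothelial markers (4 of 8 higher) summed to 806 to 982 CPM in Sham and 1073 to 1284 after AVF+NX, and macrophage markers (3 higher and 1 lower of 11) to 245 to 258 and 340 to 424 CPM. Of 9 cardiomyocyte markers 1 was higher and 2 lower. The part of cell makeup in the fall was not tested, and that of length and short RNAs was examined only by the refits that follow.

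With either the short structured RNA measure or log2 of the total count added as a covariate, 0 of the 66 were called in AVF+NX vs Sham (38 and 29 at an unadjusted p under 0.05; 58 and 2 calls over all genes), while their medians stayed at -0.31 and -0.29. After removal of the length trend 23 fell and 3 rose, with a median of -0.15. When all heart libraries were thinned to the lowest total, 37 fell. The calls over all genes after thinning or removal of the length trend are not given here. Depth moved with these values within the NX group too: hearts 2 and 3, low for Rps21 and Rpl13a, held 22679092 and 18034380 counts, and hearts 1 and 4 held 9605973 and 10511439. At nearly equal depth, AVF+NX heart 4 (11889483 counts) and Sham heart 1 (11866042) held 14.4 and 56.6 CPM of Rps21. Their Rpl13a levels were 55.9 and 126 CPM. AVF+NX heart 2, the deepest with 48079431 counts, held 11.4 CPM of Rps21 and 55.8 of Rpl13a. The part of depth in the fall was not tested further.

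**Figure D3:**
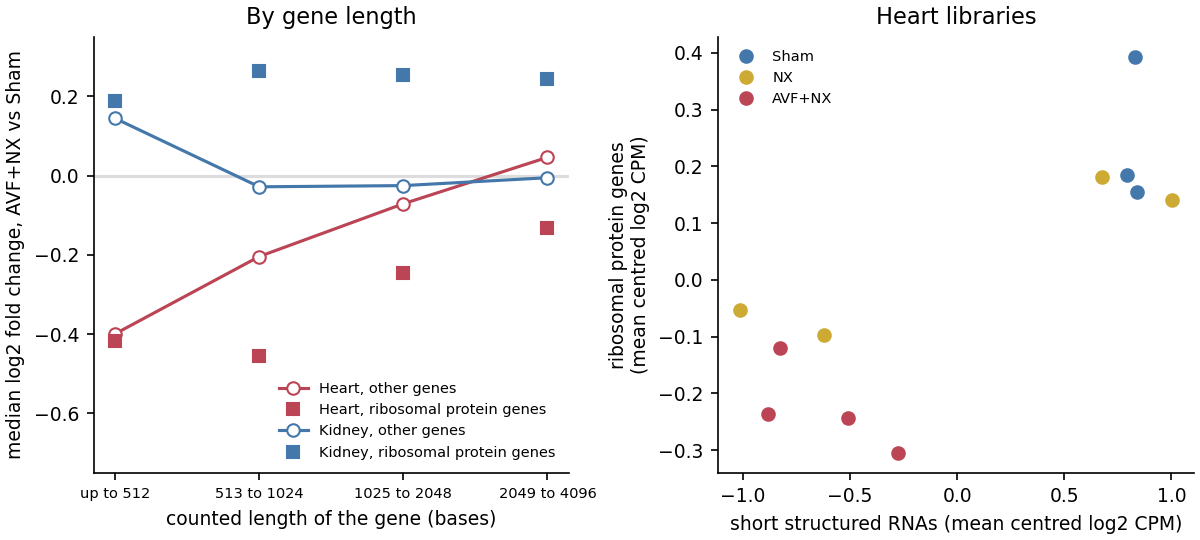
Left, median log2 fold change for AVF+NX vs Sham by counted gene length (bases) for ribosomal protein genes (squares) and other genes (circles) in heart and kidney, with the band above 4096 bases, which holds 1 member per organ, left out; right, mean centred log2 CPM of ribosomal protein genes against that of short structured RNAs in the 11 hearts. In heart the other genes rise from -0.40 in the shortest band to 0.05. NX hearts 2 and 3 lie with the AVF+NX hearts on the low side for short structured RNAs. For ribosomal protein genes they lie between the AVF+NX hearts and the rest.

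Nephrectomy alone, and the fistula on top of it, were compared in the same hearts, so these comparisons share libraries with the one above. In NX vs Sham 0 of 66 were called, as were 0% of all genes tested. At an unadjusted p under 0.05 there were 23, DESeq2 called 5 lower, and the median was -0.20 against -0.01 for all genes, or -0.03 with the length trend removed. Rpl22 (-0.50 ± 0.12, adjusted p = 0.14) and Rps16 (-0.67 ± 0.18, adjusted p = 0.15) had the smallest p. NX lay wholly below Sham for 19 of 66, against 8.94% of all genes. Without NX heart 1, 4 were called lower. For this refit and for DESeq2 the calls over all genes are not given here.

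In AVF+NX vs NX, 0 of 66 were called by edgeR, beside 0.336% of all genes, with 32 at an unadjusted p under 0.05 and a median of -0.22. DESeq2 called 17 lower and edgeR without a count filter 3. EdgeR called 13 lower without NX heart 2 and 12 without NX heart 3. Calls over all genes in these refits are not given here, so the counts do not show a shift apart from other genes. Rps23, of the decoding centre, gave -0.67 ± 0.15 (adjusted p = 0.066) and Rps15a -0.71 ± 0.16 (adjusted p = 0.069). AVF+NX lay wholly below NX for 19 members, against 5.1% of all genes. Rpl3l stood at -0.53 ± 0.13 (adjusted p = 0.076), within the same limits.

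The kidney, which was the operated organ, showed the opposite direction. In AVF+NX vs Sham 23 of 65 genes rose and 0 fell, against 15.9% of all 14322 genes called higher and 9.18% called lower. The median log2 fold change was 0.23 (all genes, -0.01), and 62 of 65 estimates were positive. Rises came from both subunits, with 12 of 35 core large and 10 of 25 core small subunit genes. AVF+NX lay wholly above Sham for 37 of 65, against 16.4% of all genes. The rises were small, the largest called being 0.68 ± 0.17 for the single-exon Rps4x, at 5.07 CPM or less. The count was 11 with the short structured RNA measure as a covariate. It was 12 without AVF+NX kidney 1, 15 without AVF+NX kidney 4 and 14 without Sham kidney 1 or Sham kidney 3. Calls over all genes in these refits are not given here.

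Rps3, Rps24 and Rps12 were among the called genes with the smallest p. Rps3 rose from 196, 214, 212 and 213 CPM in Sham and 214, 215, 199 and 223 after NX to 290.2, 257, 248 and 277 after AVF+NX (0.36 ± 0.07 against Sham, adjusted p = 0.00396). Rps24, which is mutated in some Diamond-Blackfan anaemias, gave 188, 199.5, 168 and 181 CPM in Sham, 203, 206, 178 and 162 after NX and 273, 249, 225 and 255 after AVF+NX (0.44 ± 0.10, adjusted p = 0.00544). For both genes the AVF+NX kidneys lay above all others. Rps12, a protein of the 40S beak, rose by 0.43 ± 0.10 on the log2 scale (adjusted p = 0.00596). Rps21 was at 49.0 ± 4.45 CPM in Sham and 65.8 ± 2.91 after AVF+NX (0.42 ± 0.11, adjusted p = 0.0126).

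**Figure D4:**
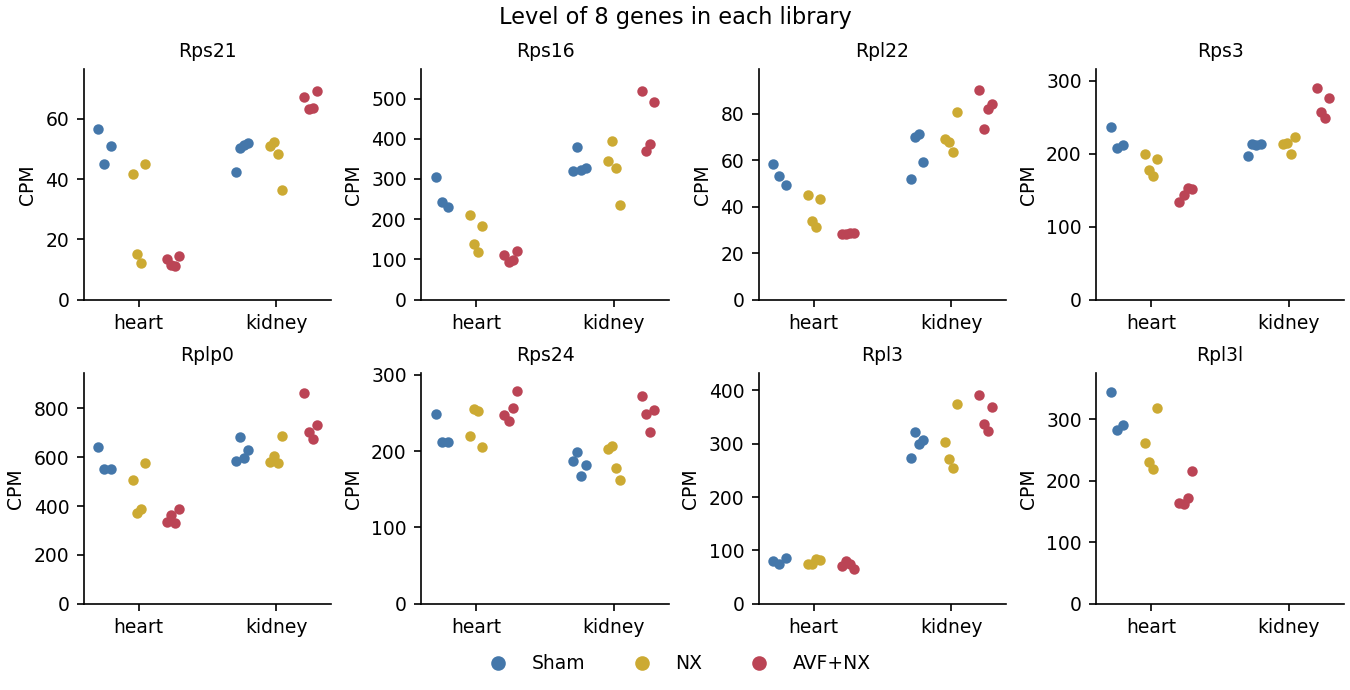
Level (CPM) of 8 ribosomal protein genes in each heart and kidney library, coloured by operation, on linear axes from 0; Rpl3l is drawn for heart only. Rps21 falls from 44.9 to 56.6 CPM in Sham hearts to 11.3 to 14.4 in AVF+NX hearts, with 2 NX hearts near each of these ranges, while Rps24 is at 225 to 273 CPM in AVF+NX kidneys and at 206 or below in the other kidneys.

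In the kidney, NX alone moved little: 0 of 65 were called in NX vs Sham, against 1.31% of all genes, with 1 at an unadjusted p under 0.05, 0 by DESeq2 and a median of -0.02. Against NX, the AVF+NX kidneys had 15 genes higher and 0 lower, beside 4.87% and 1.2% of all genes, with a median of 0.27. Among those with the smallest p were Rpl17 (0.37 ± 0.07, adjusted p = 0.0134) and Rpl23 (0.46 ± 0.10, adjusted p = 0.0208). Rpl17 lines the exit tunnel for the new protein, and Rpl23 can bind the p53 regulator Mdm2. AVF+NX lay wholly above NX for 35 members, against 7.49% of all genes. The count of 15 became 27 by DESeq2, 23 with the log2 total count as a covariate and 8 without a count filter. It was 0 with the short structured RNA measure as a covariate and 1 when only the 2 groups were fitted, with medians of 0.23 and 0.26. It was 2 without AVF+NX kidney 1, 4 without AVF+NX kidney 4 or NX kidney 3, and 7 without AVF+NX kidney 2. These refit counts stand without the calls over all genes in the same refits. NX kidney 4, the deepest kidney library with 18782085 counts, stood apart from the other NX kidneys for some members, such as Rps27 (92.9 CPM against 207 to 240).

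Rplp0 and Rpl3 were not called in either kidney comparison with AVF+NX, although their estimates were positive (0.25 ± 0.10 and 0.24 ± 0.12 against Sham, adjusted p = 0.089 and 0.15). Rpl5 rose against NX (0.33 ± 0.09, adjusted p = 0.0427) and not against Sham (0.16 ± 0.09, adjusted p = 0.20). The difference between these contrasts was not tested, and the call against NX was lost in 9 of 16 alternatives. Negative estimates against Sham came from Rps20, Rps19bp1 and Rpl7, none of them called.

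Markers of other cell types moved with the rise in kidney. Macrophage markers were called higher in AVF+NX vs Sham for 11 of 11, with summed levels of 309 to 397 CPM in Sham, 382 to 1206 in NX and 1237 to 2792 in AVF+NX kidneys. B and plasma cell markers (8 of 9 higher) summed to 88.6 to 113, 98.0 to 284 and 922 to 2752 CPM in the same order, with Ms4a1 at 0 in every Sham kidney. T and NK cell markers (9 of 10 higher) summed to 37.3 to 46.2, 52.8 to 141 and 164 to 263 CPM, and fibroblast markers (6 of 8 higher) to 662 to 922, 1058 to 3354 and 3040 to 6819 CPM. Proximal tubule markers fell for 7 of 10, from 19718 to 24248 CPM in Sham to 11445 to 17223 after AVF+NX, with 13730 to 20635 after NX. Urothelial markers (4 of 6 higher) summed to 0.989 to 16.7 CPM in Sham and 8.88 to 104.6 after AVF+NX, with Krt5 at 0 in every Sham kidney, and adipocyte markers (3 of 5 higher) to 15.7 to 44.7 and 82.6 to 114.6 CPM. Podocyte (3 of 6), thick ascending limb (3 of 6) and distal tubule and collecting duct (3 of 9) markers had lower members and none higher, and endothelial markers 3 lower and 1 higher of 8. The part of these cells in the rise was not tested. Other kidney genes showed little trend with length, with medians from -0.03 to -0.01 above 512 and up to 4096 bases and 0.14 for the shortest, where 22.7% of all genes were called higher and 3 of 20 members rose.

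Whether the organs differed was tested directly, as the heart change minus the kidney change in 1 fit of all 23 libraries. For AVF+NX vs Sham the difference was negative for 36 of 66 genes and positive for 0, against 14.6% and 13.3% of all 15222 genes, with a median of -0.53. The smallest p belonged to Rps3 (-0.86 ± 0.11, adjusted p = 6.52e-05), Rpl22 (-1.21 ± 0.16, adjusted p = 9.27e-05) and Rps15 (-0.87 ± 0.12, adjusted p = 9.93e-05). Across single genes, 15 of 65 were called lower in heart and higher in kidney, 26 lower in heart and not called in kidney, 8 higher in kidney and not called in heart, and 16 in neither. Over the 12238 genes tested in both organs these shares were 1.56%, 15.5%, 10.4% and 49.4%. The 2 organs share no libraries, but a heart and a kidney may come from 1 rat. The labels do not tell which, so the fit treats all libraries as independent. The covariates, removal of the length trend and thinning, which lowered the heart count, were not run for the organ differences. For AVF+NX vs NX the difference was negative for 11 genes and positive for 0, beside 0.867% and 0.25% of all genes (median -0.46), with Rps3 (-0.64 ± 0.11, adjusted p = 0.00653), Rps15 (-0.67 ± 0.11, adjusted p = 0.00703) and Rps15a (-1.01 ± 0.19, adjusted p = 0.0107) leading. DESeq2 called 28 genes and edgeR without a count filter 7. Leaving out single libraries moved these 11 to between 4 and 22; it was 4 without any of AVF+NX hearts 1 to 3, NX heart 1 or 4, AVF+NX kidney 1 or 4, or NX kidney 3, and 22 without NX heart 2 or 3. For NX vs Sham it was 0, beside 0.158% of all genes, with 10 at an unadjusted p under 0.05 and 1 by DESeq2. In that difference 1 was called without NX heart 1 and 2 without NX heart 4. Calls over all genes in the refits of the organ differences are not given here.

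**Figure D5:**
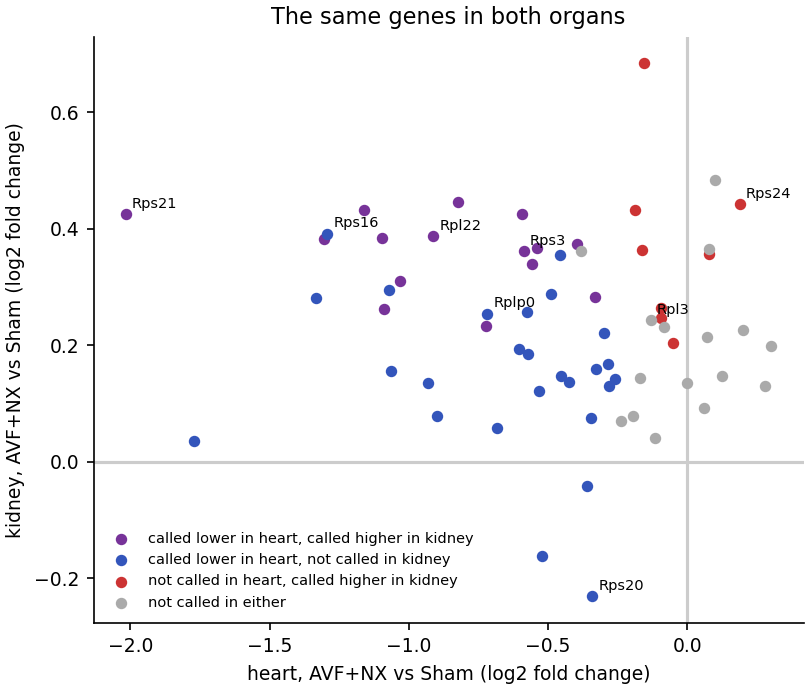
Log2 fold change of AVF+NX vs Sham in heart (horizontal) and kidney (vertical) for the 65 genes tested in both organs, coloured by call. Most points lie left of 0 and above 0, Rps21 farthest left at -2.02, and 15 genes (purple) were called lower in heart and higher in kidney.

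Members with a pyrimidine run at the annotated start fell in heart after AVF+NX in 15 of 29 cases. Those without fell in 16 of 20, beside 18.6% of all genes tested in heart. In kidney 12 of 29 with the run rose and 6 of 19 without, beside 15.9% of all genes tested there. The split depends on the exact annotated base: in Rpl23 a run ends just before the start base, and it is counted without one. Both Rps21, with a run of 10 bases, and Rps3, with a single pyrimidine at its start, were among the lower genes in heart. Rps16 is counted without a run by its RefSeq window, which may not belong to the gene that was counted. No test was made of these counts, and a match describes letters near an annotated start, not a site in use.

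Other parts of the translation machinery, from lists compiled for this tissue, were counted in AVF+NX vs Sham beside the share of all genes called, 15.4% higher and 18.6% lower in heart. There, 4 of 9 elongation factor genes fell and 1 rose (median -0.23): Eef1g (-0.63 ± 0.12, adjusted p = 0.00349) and Eif5a (-0.61 ± 0.13, adjusted p = 0.00571) fell. Of 32 initiation factor and poly(A)-binding genes 5 rose and 3 fell (median 0.08), with Pabpc1, whose protein coats poly(A) tails, up by 0.65 ± 0.09 (adjusted p = 0.00174) and Eif4h, a helper of the Eif4a helicase, at -0.56 ± 0.11 (adjusted p = 0.00344). Ribosome biogenesis and RNA polymerase I genes gave 5 higher and 9 lower of 57 (median 0.00), led by the pseudouridine synthase Dkc1 (-1.08 ± 0.16, adjusted p = 0.00175). Of 25 mTOR, S6 kinase and Myc regulators 2 rose and 4 fell, among them the RNA polymerase III repressor Maf1 (-0.64 ± 0.12, adjusted p = 0.00301). For the initiation, biogenesis and regulator lists these shares were near or below those of all genes.

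The mitochondrial ribosomal proteins, which belong to a separate ribosome, gave 6 higher and 25 lower of 71 in heart (median -0.12, against 15.4% higher and 18.6% lower over all genes), with Mrps34 (-0.95 ± 0.14, adjusted p = 0.00183) and Mrpl2 (-0.84 ± 0.13, adjusted p = 0.00211) lowest in p. In kidney 1 of the 71 fell and 0 rose (median -0.10). Outside the rule, 2 further paralogues were lower in heart, Rpl22l1 (-1.38 ± 0.19, adjusted p = 0.00169) and Rpl7l1 (-0.48 ± 0.17, adjusted p = 0.04). The ribosome-bound scaffold Rack1 was not called in heart (-0.15 ± 0.09, adjusted p = 0.22) and rose in kidney (0.30 ± 0.10, adjusted p = 0.0435).

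In kidney, elongation factors gave 1 higher and 0 lower of 8 tested, initiation and poly(A)-binding genes 3 higher and 1 lower of 32, and biogenesis genes 3 higher and 1 lower of 57. All of these shares were below the 15.9% higher and 9.18% lower of all genes. Pabpc1 rose there too (0.48 ± 0.11, adjusted p = 0.00685). Tcof1, a nucleolar factor of RNA polymerase I transcription, rose by 0.54 ± 0.09 on the log2 scale (adjusted p = 0.00124). Of the 25 regulators 4 rose and 5 fell, beside the 15.9% and 9.18% of all genes. Higher were Mycl (2.96 ± 0.47, adjusted p = 0.000933) and Myc (0.89 ± 0.22, adjusted p = 0.0119), which drive ribosomal genes in other settings. Eif4ebp1 rose as well (0.73 ± 0.20, adjusted p = 0.0203). The stress-induced mTOR inhibitor Sesn2 was among the lower (-0.62 ± 0.14, adjusted p = 0.00801). In heart both Sesn2 (-0.46 ± 0.14, adjusted p = 0.0213) and Eif4ebp1 (-0.64 ± 0.17, adjusted p = 0.0122) were lower.

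The authors' own calls were counted for the same genes. In the authors' deposited table for heart AVF+NX vs Sham 44 of the 66 were lower and 1 higher at their adjusted p under 0.05, beside 20.8% and 19.5% of all genes in it, and 0 were called in NX vs Sham. For AVF+NX vs NX the authors' deposited table called 11 lower in heart (1.91% of all genes) and 20 of 65 higher in kidney (6.16%), and for kidney AVF+NX vs Sham 38 higher (18.1%). These calls come from the same libraries and are not a separate measurement.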

How the data were processed

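RNA from 12 kidneys and 11 hearts was sequenced as strand-specific poly(A) libraries, per the labels' protocols. The submitters' processing notes name featureCounts, Subread (1.5.2), STAR (2.5.2b) and Trimmomatic (0.36). Neither the genome build nor whether the counting used strand is given in the sources used here, so values of overlapping genes are uncertain. Deposited whole-number counts per gene were used as they stand. The authors' deposited tables also hold log2 fold changes, p-values and a normalised signal per library. The signal was not used. Of the 32552 identifiers, 15123 carry a symbol in the authors' tables.

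The 3 groups of an organ shared a fit by the robust quasi-likelihood F test of edgeR 4.0.16 under R 4.3.3, with filterByExpr and TMM. P-values were Benjamini-Hochberg adjusted over all genes tested (12794 in heart, 14322 in kidney), and calls made under 0.05. No replicate was a repeat of another: in every pair, chi-square was at least 6.15 times its degrees of freedom. Nothing ties same-numbered samples to a shared rat or day, and their deviations correlated between -0.12 and 0.38. Where samples do not come from separate animals, p-values cover only their spread. The fit was tested on simulated data.

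Members and lists were chosen with earlier results of these data known. Named were 15 fixed members (10 of them analysed), per comparison the 4 called members with the smallest p in each direction (2 where none was called), the 5 highest and 3 lowest Sham levels, 3 per organ difference and direction, up to 4 per other list and the 5 genes most like Rpl3l; some of these are not reported here. Rps21, Rps14, Rpl36al and Rpl30 were added after their values were seen. Alternatives were other scaling, no filter, DESeq2 1.42.0, covariates, pairs of groups, a replicate term, left-out libraries and, chosen after seeing the data, thinning. Length bands were also chosen after seeing the data. TMM-scaled CPM used log2 values with a prior count of 2 only for centred measures.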

Additional observations from a re-analysis of the deposited data

Results flagged for a closer look

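In 5 of the 102 groups of 4 libraries examined, 1 library lay far from the other 3; chance alone marks about 1 group in 20. Sham kidney 2 gave 1.45% of its counts to the ribosomal protein genes, against 1.31% to 1.34% in the other Sham kidneys. It also held the most Rps16, 379 CPM against 320.0 to 327. Sham kidney 1 was low for Rps21, at 42.4 CPM against 50.4 to 52.0, and for Rps3, at 196 CPM against 212 to 214. Rpl13a reached 144 CPM in NX kidney 4, with 119 to 123 in the others. Only the summed measures and part of the named members were examined in this way. Among members outside it, picked after seeing their values, NX kidney 4 was low for Rps27 (92.9 CPM against 207 to 240 in the other NX kidneys) and Rpl31 (67.9 against 144 to 166). It was high for Rps20 (249 against 112 to 129) and within the others for Rps10. Its mitochondrial share was 4.15%, against 9.37% to 9.63%.

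Changes in heart and kidney differed by a test of the difference itself. For AVF+NX vs Sham the heart change lay below the kidney change for 36 genes, with Rps3 at -0.86, Rpl22 at -1.21 and Rps15 at -0.87 on the log2 scale. For AVF+NX vs NX this held for 11 genes, with Rps3 at -0.64, Rps15 at -0.67 and Rps15a at -1.01.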

How the results depend on the processing

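Counts of called ribosomal protein genes are given by comparison. They stand without the calls over all genes in the same refit, so they do not show whether the members shifted apart from other genes. Heart NX vs Sham, 0 as reported, gave 5 by DESeq2, 2 with a replicate block and 0 to 4 with single libraries left out. Heart AVF+NX vs Sham, 42, gave 26 with the length trend removed, 0 with the short structured RNA measure and 0 with the log2 total count as a covariate, and 26 to 41 with libraries left out (26 without Sham heart 1). Heart AVF+NX vs NX, 0, gave 3 with no count filter, 17 by DESeq2, 2 with a replicate block and 0 to 13 with libraries left out. Kidney AVF+NX vs Sham, 23, gave 11 with the short RNA covariate and 12 to 24 with libraries left out. Kidney AVF+NX vs NX, 15, gave 8 with no count filter, 27 by DESeq2, 0 with the short RNA covariate, 23 with the log2 total, 1 with only the 2 groups fitted and 2 to 21 with libraries left out. The organ difference of NX vs Sham, 0, gave 1 by DESeq2 and 0 to 2 with libraries left out, and that of AVF+NX vs NX, 11, gave 7 with no count filter, 28 by DESeq2 and 4 to 22 with libraries left out. Kidney NX vs Sham and the organ difference of AVF+NX vs Sham stayed within 1.5 times under the alternatives run. For the organ differences the covariates, removal of the length trend, pairs of groups and thinning were not run. The replicate block changed no other count by over 1.5 times, and nothing in the labels pairs the numbers. The spliced Rps27a turned to 0.074 in heart AVF+NX vs Sham with the length trend removed. Over 38 results for single genes, 553 values kept their call, 89 lost it, 5 gained it and 1 reversed. Apart from the steps that remove libraries or the length trend themselves, the cause was not tested. Depth limits the lowest members, such as Rpl30 at 0.286 to 2.71 CPM in heart.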
